A study of Drosophila melanogaster with 6 samples.

Results

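*Bbd*, *CG30154* and the noncoding gene *CR44651* are 3 neighbouring genes on chromosome 2R of *Drosophila melanogaster*, and all 3 had more transcript in male heads 4 hr after penetrating traumatic brain injury (PTBI) than in uninjured heads. They were taken by name from the authors' list of 367 genes with at least a 2-fold change and an adjusted p below 0.05, in which *Bbd* carries its older symbol *CG18067*. The genes were chosen on the difference between these same samples, so their values after PTBI and without injury are a description, and no p-value is given for them. Bulk RNA-Seq was run on 3 samples of heads taken 4 hr after PTBI, in which the central brain was injured on both sides, and on 3 samples of heads from uninjured males of matched age. Flies of both groups came from crossing w; UAS-mCD8-GFP;; OK107-GAL4 flies with yw flies, which gives a membrane-bound GFP reporter under a GAL4 driver known for the mushroom bodies, and were collected within 6 hr of eclosion. Each sample pools about 100 to 120 whole heads, so brain, fat body, haemocytes and cuticle were sampled together. In such bulk samples, a change in the number of cells of a type and a change in RNA per cell cannot be told apart.

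*Bbd* (*bombardier*) encodes a secreted protein that is produced under the control of Toll, the innate immune pathway of *Drosophila* that responds mainly to fungi and Gram-positive bacteria. Toll signalling ends in the NF-κB factors Dif and Dorsal, which switch on genes for short peptides such as Drosomycin and the Bomanins. Bombardier is known to be needed for the short Bomanin peptides to be present in the haemolymph and for Toll-dependent defence against fungi. *CG30154* encodes a small protein and *CR44651* is annotated as a long noncoding RNA, and neither has a role that is stated here.

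The 3 genes form an unbroken row on the forward strand within 3969 bases (Ensembl 115 annotation of BDGP6, 1-based). *CR44651* lies first, at chr2R:20531867-20532969, as 1 exon of 1103 bases. *CG30154* follows at chr2R:20533359-20533934 after a gap of 389 bases. It has 2 exons, an intron of 69 bases and a reading frame of 64 residues. *Bbd* lies at chr2R:20534245-20535835, after a further gap of 310 bases. Over the annotation, 37.3% and 32.0% of the gaps between neighbouring genes of 1 strand are no longer than these 2 gaps (median 671 bases), so the spacing of the row is not unusual. No other annotated gene overlaps the row on either strand.

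*Bbd* has 2 annotated transcripts, each with 2 exons. They share an intron of 61 bases and a reading frame of 245 residues, and differ in their untranslated ends. The longer transcript has 281 bases of 5′ UTR and 511 bases of 3′ UTR, against 17 and 53 bases in the shorter. The RPKM of *Bbd* divides its reads by 1530 bases, the length of the longer transcript, which is 1.89 times that of the shorter (808 bases). If the shorter transcript prevailed, the level per length of *Bbd* would thus be understated, while its fold between groups would change only if the use of the transcripts changed. The files hold 1 value per gene, so transcripts were not told apart.

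**Figure D1:**
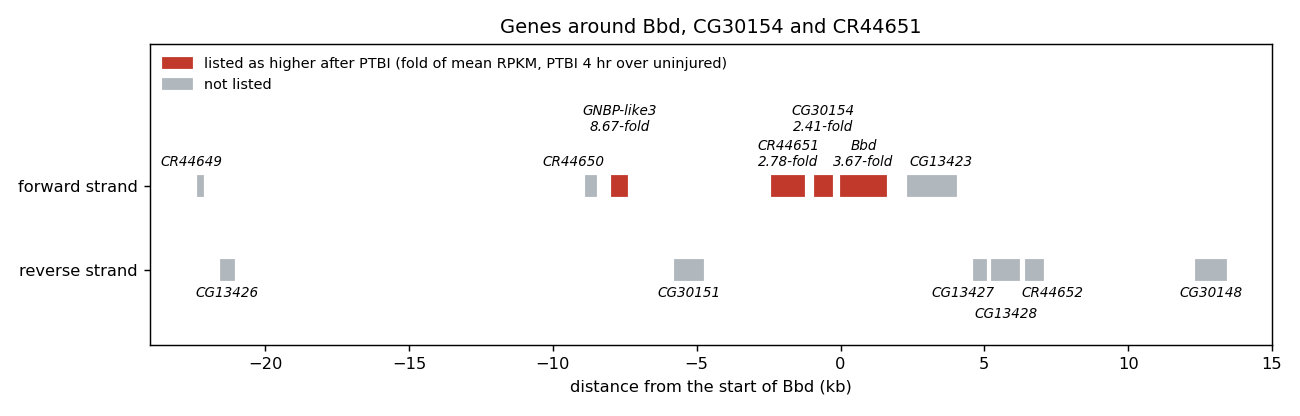
Map of the 5 annotated genes on each side of the row, to scale, as distance from the start of *Bbd* in kb, with forward strand genes above and reverse strand genes below. Red boxes are genes listed as higher after PTBI, with the fold of their mean RPKM (PTBI 4 hr over uninjured), and grey boxes are genes not listed. *CR44651* (2.78-fold), *CG30154* (2.41-fold) and *Bbd* (3.67-fold) sit side by side, and *GNBP-like3* (8.67-fold) is the other red gene.

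*Bbd* was one of the most abundant of the genes listed as higher. It stood at 1097, 1186 and 1697 RPKM (reads per kilobase of gene and scaled to the library's size) in PTBI replicates 1, 2 and 3, against 350.1, 389.7 and 343.6 RPKM in uninjured replicates 1, 2 and 3. The lowest PTBI sample was 2.82 times the highest uninjured sample, and PTBI replicate 3 stood above the other PTBI samples. The means were 1327 ± 324 RPKM after PTBI and 361 ± 25.0 RPKM without injury (SD, n = 3 each), 3.67-fold higher after PTBI. By mean RPKM, *Bbd* ranked 11th after PTBI and 7th without injury among the 259 genes listed as higher. By fold it ranked 106th, close to the median of these genes (3.13-fold), so it differs from most of them in its level more than in its fold.

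The level of *Bbd* rests on many reads. The authors' RPKM could be turned back into whole reads, which gave 50693, 44162 and 91337 reads of *Bbd* in PTBI replicates 1, 2 and 3, against 15960, 21561 and 13952 reads in uninjured replicates 1, 2 and 3. *Bbd* alone took 0.168%, 0.181% and 0.260% of all reads in the PTBI samples, against 0.0536%, 0.0596% and 0.0526% in the uninjured samples. Counting error was thus small, with an average coefficient of variation of 0.417% per PTBI sample and 0.773% per uninjured sample. The spread between samples was far larger, at 24.4% in the PTBI group and 6.91% in the uninjured group, and most of the spread after PTBI came from replicate 3. Without PTBI replicate 3, the log2 fold change of *Bbd* was 1.66, against 1.88 with all samples.

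*CG30154*, the middle gene of the row, was expressed at a moderate level and was the most even of the 3 genes after PTBI, though not in uninjured heads. It had 36.0, 32.7 and 35.1 RPKM in PTBI replicates 1, 2 and 3, against 15.6, 14.1 and 13.4 RPKM in uninjured replicates 1, 2 and 3. The groups did not overlap, and no sample stood apart from its group. The means were 34.6 ± 1.68 RPKM after PTBI and 14.4 ± 1.11 RPKM without injury (SD, n = 3 each), 2.41-fold higher after PTBI and the smallest fold of the row. These levels came from 404 to 625 reads per PTBI sample and 180 to 259 reads per uninjured sample. The spread between samples was 4.85% after PTBI and 7.71% without injury, close to the average counting error of 4.41% and 6.73%. By fold, *CG30154* ranked 197th of the 259 genes listed as higher.

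*CR44651* was close to the limit of what these libraries can measure. It had 0.360, 0.708 and 0.567 RPKM in PTBI replicates 1, 2 and 3, against 0.183, 0.201 and 0.205 RPKM in uninjured replicates 1, 2 and 3. The groups did not overlap, but PTBI replicate 1 was 1.76 times the highest uninjured sample, the narrowest margin of the 3 genes. The means were 0.545 ± 0.175 RPKM after PTBI and 0.196 ± 0.0119 RPKM without injury (SD, n = 3 each), 2.78-fold higher after PTBI.

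Only 12, 19 and 22 reads of *CR44651* were counted in PTBI replicates 1, 2 and 3, and 6, 8 and 6 reads in uninjured replicates 1, 2 and 3. Summed over the samples, 53 reads after PTBI and 20 reads without injury give a ratio of 2.73 per library read, with a 95% interval of 1.61 to 4.83 (exact, conditional on the summed reads, counting error only). The same interval was 3.69 to 3.77 for *Bbd* and 2.21 to 2.65 for *CG30154*. The fold of *CR44651* thus cannot be told from that of either neighbour on counting error alone. The uninjured samples were more alike (6.06%) than counting error of 39.0% would give on average, so their SD understates the uncertainty of that mean. *CR44651* is 1 of 14 genes listed as higher that the annotation classes as noncoding RNA. Among these it ranked 10th by level and 9th by fold after PTBI. Listed genes that were not in the annotation, or were classed otherwise, are not in this count.

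**Figure D2:**
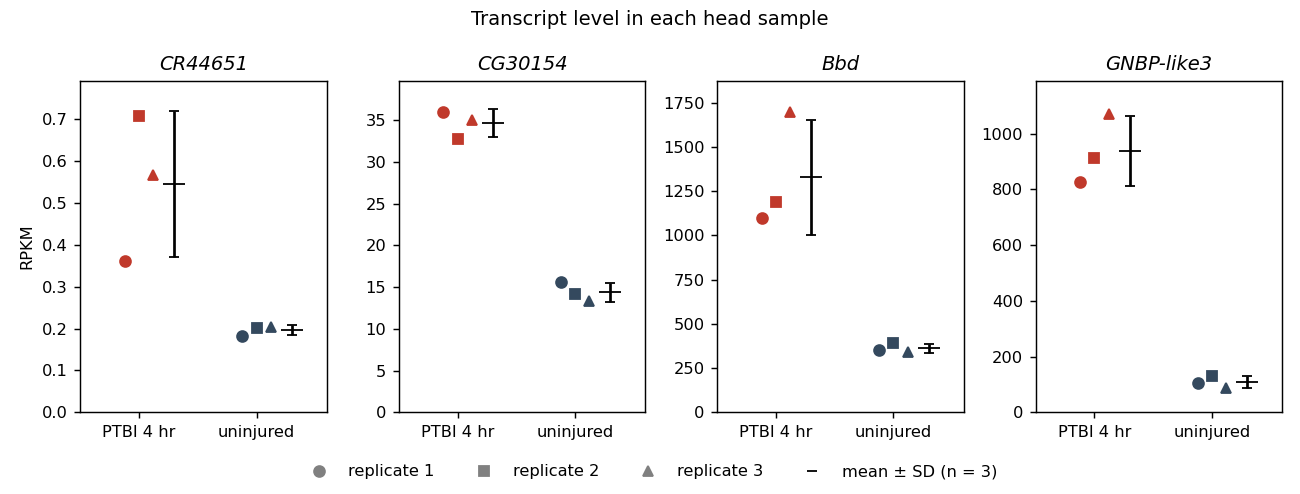
RPKM of *CR44651*, *CG30154*, *Bbd* and *GNBP-like3* in each head sample, with 1 panel per gene and its own vertical axis from 0. Red symbols are PTBI 4 hr samples, dark symbols are uninjured samples, the symbol shape gives the replicate, and black bars are the mean ± SD (n = 3). In each panel every PTBI sample lies above every uninjured sample, with the widest relative spread after PTBI in *CR44651* (0.360 to 0.708 RPKM).

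In every one of the 3 genes, each PTBI sample was above each uninjured sample. This held for 70.6% of the 367 listed genes, that is for all 259 listed as higher, and says nothing beyond how the genes were chosen. limma on log2(RPKM + 1), with Benjamini-Hochberg adjustment over the 367 listed genes, called 248 of them higher after PTBI (67.6%) and 106 lower (28.9%), and the 3 genes were among those called higher. All 367 had already passed the authors' test on these same samples. The calls thus follow largely from that choice and are no test of the 3 genes. After subtraction of each sample's median of the listed genes, which was 0.66 higher (log2) in the PTBI samples, limma called 161 higher and 126 lower, with *Bbd* and *CG30154* among the higher genes and *CR44651* no longer so. As 70.6% of the listed genes were listed as higher, this median itself holds the listed change. Its subtraction lowers every log2 fold change by the same amount, so the lost call does not show that *CR44651* was unchanged. Without this subtraction, the fitted log2 fold change was 1.85 for *Bbd* (standard error 0.18), 1.21 for *CG30154* (standard error 0.10) and 0.36 for *CR44651* (standard error 0.11). The value for *CR44651* understates its change, since the added 1 exceeds its RPKM in every sample.

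The folds of the row differed far less than the levels. After PTBI the mean RPKM of *Bbd* was 2434 times that of *CR44651*, whereas the largest fold of the row was 1.52 times the smallest. The list required at least a 2-fold change but set no limit on level. Of the 259 genes listed as higher, 117 had folds of 2 to 3, so this contrast follows in part from the listing. The fold of *CR44651* also rests on only 6 to 22 reads per sample. Among the genes listed as higher there were 7 rows of at least 3 neighbouring genes with no unlisted gene between them, and 3 of these, this row included, lay on 1 strand throughout. The other rows on 1 strand were *CG43165*, *CG16713*, *IM33* and *CG3604*, and *Dro*, *AttA* and *AttB*. Across the 7 rows, the largest fold was 1.51 to 2.77 times the smallest, and the highest level after PTBI was 2.09 to 2434 times the lowest, with the row of *Bbd* at the upper end for level and near the lower end for fold.

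**Figure D3:**
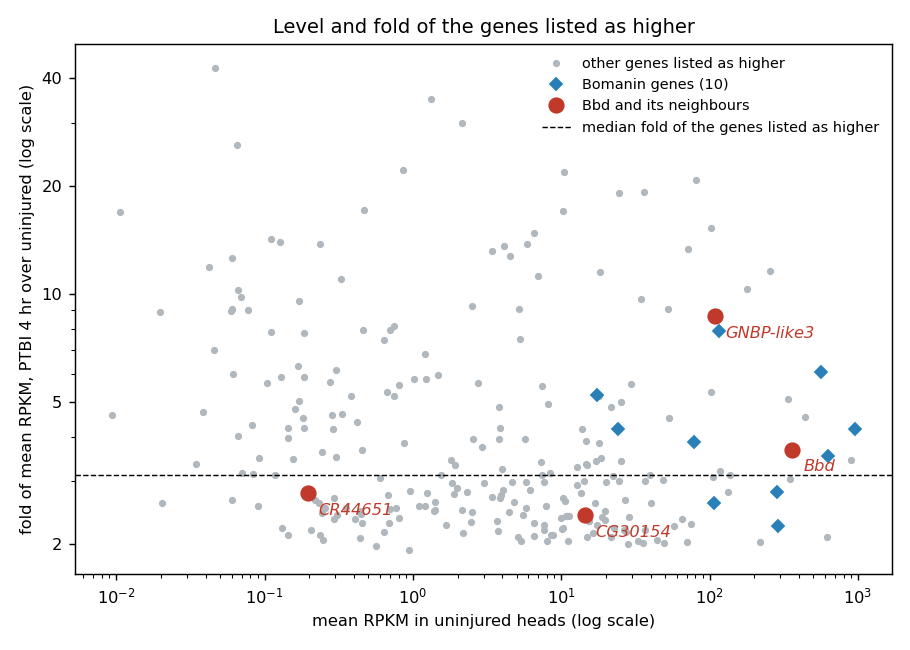
Fold of mean RPKM (PTBI 4 hr over uninjured) against mean RPKM in uninjured heads for the 259 genes listed as higher, both axes on a log scale. Red points are *Bbd*, *CG30154*, *CR44651* and *GNBP-like3*, blue diamonds are the 10 listed *Bomanin* genes, grey points are the other genes, and the dashed line is the median fold of 3.13. The 3 genes of the row lie at 2.41 to 3.67-fold, near this line, at uninjured levels from 0.196 RPKM for *CR44651* to 361 RPKM for *Bbd*.

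The level of *Bbd* relative to *CG30154*, both read from the same libraries, was not constant. Within PTBI replicates 1, 2 and 3 the RPKM of *Bbd* was 30.5, 36.2 and 48.4 times that of *CG30154*, against 22.5, 27.6 and 25.7 times in uninjured replicates 1, 2 and 3. The groups did not overlap, and the mean ratio was 38.4 ± 9.16 after PTBI and 25.3 ± 2.57 without injury (SD, n = 3 each), 1.52 times as high after PTBI. PTBI replicate 1 was nearest to the uninjured samples. The ratio of *Bbd* to *CR44651* was 3045, 1676 and 2993 in PTBI replicates 1, 2 and 3, against 1918, 1943 and 1676 in uninjured replicates 1, 2 and 3. These ratios overlapped between the groups and rest on few reads of *CR44651*. The ratio of *CG30154* to *CR44651* also overlapped, at 46.3 to 99.9 after PTBI and 65.3 to 85.2 without injury.

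No shared variation of the 3 genes between replicates of a group was seen, but counting error limits what these values can show. Deviations from the group means of log2(RPKM + 1) correlated over the 6 samples with Pearson's r of 0.04 between *Bbd* and *CG30154*, 0.29 between *Bbd* and *CR44651* and -0.58 between *CG30154* and *CR44651*. These values describe 6 points with the group means taken out. They share libraries, and the reads of *CR44651* are few. The spread of *CG30154* (4.85% after PTBI and 7.71% without injury) was close to its counting error (4.41% and 6.73%). Low correlations with these 2 genes thus cannot show whether the genes vary together. The PTBI replicate with most *Bbd* was the third and the one with most *CR44651* the second. The one with most *CG30154* was the first, though by little (36.0 RPKM against 35.1 RPKM in the third).

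Among the 366 other listed genes, the deviations most like those of *Bbd* were in *CG30287* (r = 0.99), *BomBc3* (r = 0.98) and *lectin-28C* (r = 0.96). *BomBc3*, a *Bomanin* gene, had 86.0, 94.2 and 124.9 RPKM in PTBI replicates 1, 2 and 3, against 22.5, 26.1 and 24.2 RPKM in uninjured replicates 1, 2 and 3, and so was also highest in PTBI replicate 3. *CG30287* was listed as higher too, but on 31 to 70 reads after PTBI and 2 to 5 reads without injury. *lectin-28C*, a C-type lectin gene, was listed as lower, at 0.494 times its uninjured level, so that a like spread between replicates did not go with a like direction after PTBI. *CG30154* was most like *Dso1* (r = 0.97), which encodes the Toll-induced peptide Daisho1 and was 3.44-fold higher, *Srg1* (r = 0.88), which was 2.29-fold higher, and *Agpat4* (r = 0.87), which was listed as lower, at 0.418 times its uninjured level. *CR44651* was most like *CG11034*, *PGRP-SA* and *CG10126* (r = 0.98 each). Each of these was picked as the highest of 366 values over 6 samples.

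Outside the row, 1 of the 5 annotated genes on each side (10 in all) was listed. This was *GNBP-like3*, named for its likeness to the Gram-negative binding proteins that recognize microbes, at chr2R:20526311-20526825. It lies on the same strand, 5041 bases before *CR44651*, and *CG30151*, a gene on the reverse strand that was not listed, lies between them. *GNBP-like3* had 825, 913 and 1072 RPKM in PTBI replicates 1, 2 and 3, against 106.5, 129.8 and 87.9 RPKM in uninjured replicates 1, 2 and 3, and the groups did not overlap. It was 8.67-fold higher after PTBI, with means of 937 ± 125 RPKM after PTBI and 108 ± 21.0 RPKM without injury (SD, n = 3 each), and its fitted log2 fold change was 3.11 (standard error 0.17).

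*GNBP-like3* thus had a larger fold than any gene of the row, and the order of levels with *Bbd* held in both groups. The RPKM of *Bbd* was 1.33, 1.30 and 1.58 times that of *GNBP-like3* in PTBI replicates 1, 2 and 3, against 3.29, 3.00 and 3.91 times in uninjured replicates 1, 2 and 3. In both groups the ratio was highest in replicate 3. *CG13423*, which follows *Bbd* on the same strand after 742 bases, was not listed, and neither were *CG13427*, *CG13428*, *CR44652* and *CG30148* beyond it. With 10 annotated genes on each side, *GNBP-like3* was still the 1 listed gene. A gene that is not listed has no value here, and may have changed by less than 2-fold or have had too few reads for the authors' test.

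Most *Bomanin* genes, whose short peptides need Bombardier in the haemolymph, were higher after PTBI as *Bbd* was. Of 12 annotated *Bomanin* genes, 10 were listed as higher after PTBI and called higher by limma, none was listed as lower, and *BomS4* and *BomS6* were not listed. As background, 253 of 17873 annotated genes (1.42%) were listed as higher, though not all of these were in the authors' test, and of the 367 listed genes 70.6% were listed as higher and 67.6% called so by limma. Their folds ran from 2.26 to 7.89 with a median of 4.03, beside a median of 3.13 over the 259 genes listed as higher. *BomBc1* had the largest fold (7.89), at 912 ± 106 RPKM after PTBI against 116 ± 9.24 RPKM in uninjured heads (SD, n = 3 each), and *BomS1* the next (6.04). The fold of *Bbd* (3.67) lay within this range. The authors listed these genes on the same samples, so the counts are no independent evidence of a direction.

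The 4 listed short *Bomanin* genes *BomS1*, *BomS2*, *BomS3* and *BomS5* had folds of 3.52 to 6.04. Their summed level was 10248, 9174 and 10344 RPKM in PTBI replicates 1, 2 and 3, against 2288, 2254 and 2130 RPKM in uninjured replicates 1, 2 and 3, 4.46-fold higher by the means. The level of *Bbd* was 0.107, 0.129 and 0.164 of this sum in PTBI replicates 1, 2 and 3, against 0.153, 0.173 and 0.161 in uninjured replicates 1, 2 and 3. These ratios overlapped between the groups, because PTBI replicate 3 reached the uninjured range, while PTBI replicates 1 and 2 lay below it. Over all 6 samples the ratio lay between 0.107 and 0.173. Near-identical *Bomanin* genes may share reads, which affects single genes more than their sum.

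**Figure D4:**
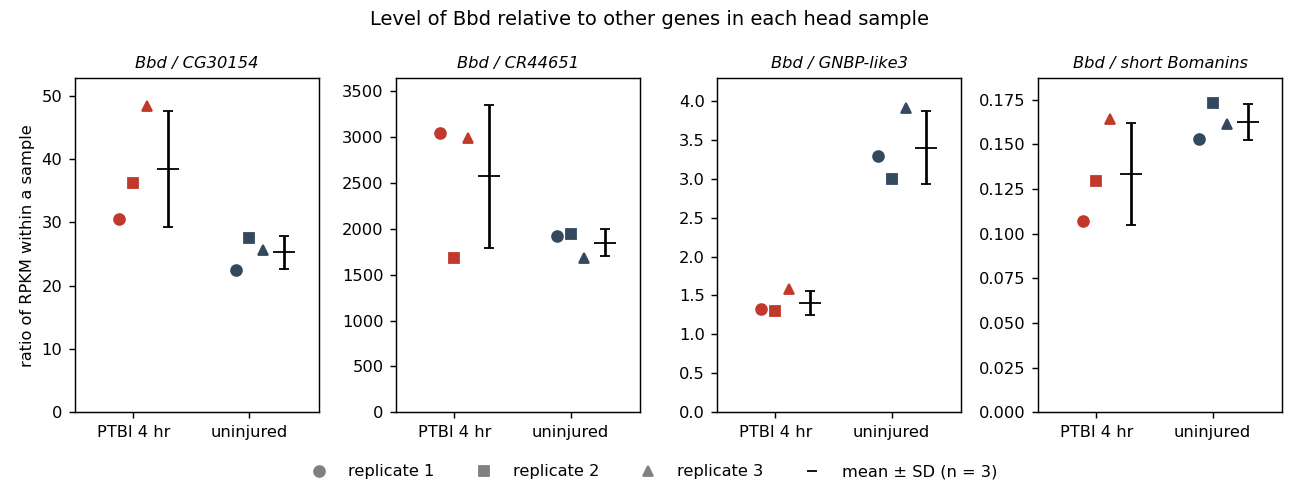
RPKM of *Bbd* divided by that of *CG30154*, *CR44651*, *GNBP-like3* or the summed short *Bomanins* (*BomS1*, *BomS2*, *BomS3* and *BomS5*) within each head sample, with a vertical axis from 0 in each panel. Red symbols are PTBI 4 hr samples, dark symbols are uninjured samples, the symbol shape gives the replicate, and black bars are the mean ± SD (n = 3). The PTBI ratios lie above the uninjured ratios for *CG30154* (30.5 to 48.4 against 22.5 to 27.6), below them for *GNBP-like3* (1.30 to 1.58 against 3.00 to 3.91), and overlap them for *CR44651* and the short *Bomanins*.

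Other parts of the Toll response were listed only in part. Of 8 genes for other Toll-induced peptides, 5 were found in the list by identifier, all as higher, as were 70.6% of all listed genes. They were *Drs*, *Mtk*, *Dso1*, *Dso2* and *BaraA1*, with a median fold of 4.99. *BaraA2*, *BaraB* and *BaraC* were not found this way. Not all listed genes were found in the annotation (360 were), so a gene listed under an older identifier could be missed. *IMPPP* was listed under that symbol as 5.09-fold higher (mean RPKM 1709 after PTBI against 336 without injury). Whether *IMPPP* is an older symbol for any of the genes not found was not checked. Of the 5 genes found, *Mtk*, which encodes the antifungal peptide Metchnikowin, had the largest fold (11.6), followed by *Drs*, which encodes Drosomycin (10.3). Of 22 genes of the Toll pathway itself, 21 were found in the annotation and 4 were listed, all as higher, beside the same 70.6% of all listed genes. For both counts, the background is 253 of 17873 annotated genes (1.42%) listed as higher, though not all were in the authors' test. *PGRP-SA*, a receptor for bacterial peptidoglycan upstream of Toll, was 11.2-fold higher, *PGRP-SD* 3.41-fold higher, and *Hayan* and *spz* were the others. The 17 that were not listed include the signalling genes *Tl*, *Myd88*, *tub*, *pll*, *cact*, *dl* and *Dif*.

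Cell type markers could be checked only as far as they were listed. None of 6 haemocyte markers and none of 4 neuron markers was listed. Of 6 fat body markers, 4 were listed, all as lower (*Lsp2*, *Lsp1beta*, *fit* and *apolpp*), and their summed level was 136 to 318 RPKM in the PTBI samples, against 1087 to 1715 RPKM in the uninjured samples. Of 5 glial markers, *Mdr65* and *wrapper* were listed as lower, with a sum of 20.9 to 22.8 RPKM in the PTBI samples, against 58.9 to 64.8 RPKM in the uninjured samples. As background for the marker counts of each cell type, 253 of 17873 annotated genes (1.42%) were listed as higher and at most 108 as lower. Not all of these genes were in the authors' test. Among the listed genes alone, 108 of 367 were listed as lower, and limma called 106 of the 367 lower (28.9%). No listed marker was at 0 in these sums. The part of these changes in the values of *Bbd* and its neighbours was not tested. The libraries held 24.3 to 35.2 M reads after PTBI and 26.5 to 36.2 M reads without injury, so depth was similar in the groups.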

How the data were processed

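The deposited values are RPKM per sample, which the authors made from single-end 50 bp reads of strand-specific mRNA libraries. They mapped these with Subjunc (Subread) to FlyBase's genome, counted reads per gene and tested them with voom and limma. Versions and the genome release are not given in the sources used. The sheets hold only genes past the authors' thresholds, and their columns of fold changes, mean expression and p-values from the authors' comparison were not used. Columns were mapped to samples by library name, and 0 columns belonged to other samples.

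Identifiers of 360 genes were found in the Ensembl 115 annotation, the source of all coordinates. With its exon lengths, the RPKM of 357 genes became whole numbers of reads in the 6 samples (tolerance 0.02), which also gave the library sizes. Folds are ratios of group means of RPKM. log2(RPKM + 1) of the 367 genes was fitted with limma 3.58.1 (R 4.3.3) without a block, after a test on simulated data. numpy 2.4.6, scipy 1.17.1, pandas 2.3.3 and matplotlib 3.10.9 were run under Python 3.11.15.

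The genes, lists and alternatives were chosen with earlier results of these data known. Besides the 3 genes, the rule names listed genes among the 5 annotated genes on each side (transposable elements left out), the 3 genes most like each, and the 2 members of each list with the largest fold. Other genes named were added after their values were seen. Same-numbered PTBI and uninjured replicates deviated together weakly over the listed genes (correlations 0.24, 0.12 and 0.16), although the labels give no shared batch. The main results treat the samples as unpaired, and a replicate block was run as an alternative. The labels call the samples biological replicates.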

Additional observations from a re-analysis of the deposited data

How the results depend on the processing

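The direction of the 3 log2 fold changes (1.88 for *Bbd*, 1.27 for *CG30154* and 1.48 for *CR44651*, from ratios of mean RPKM) held under each alternative tried. Each PTBI sample lay above each uninjured sample, so leaving out a sample or taking medians could not have reversed the direction. The log2 fold changes moved by more than the spread between replicates when each sample was centred on its own median, to 1.22, 0.61 and 0.82, and for *CR44651* when limma was used on log2(RPKM + 1) (0.36). Centring took the same 0.66 from each log2 fold change. This is the difference between the groups in sample medians over the listed genes, of which 70.6% were listed as higher. The move on centring is thus not particular to these 3 genes. Medians of the 3 same-number ratios, used as the replicate block for these folds, were 1.65, 1.21 and 1.47 (log2), which differ from the main values as medians do and not through blocking. limma with the replicate block gave the same log2 fold changes as without it (1.85, 1.21 and 0.36) and called 247 genes higher and 104 lower, against 248 and 106 without it, and the block changed no call of the 3 genes. Leaving out each sample in turn gave 1.66 to 2.00 for *Bbd*, 1.22 to 1.33 for *CG30154* and 1.24 to 1.70 for *CR44651*, and 235 to 247 genes called higher and 102 to 104 called lower. Centring gave 161 genes called higher. Pseudocounts of 0.1 and 5 and a filter at a mean RPKM of 1 kept these counts within 1.5 times, but the filter removed *CR44651*. The genes most like each gene were unstable. Of the 3 named for *Bbd*, *CG30154* and *CR44651*, Spearman's correlation kept 1 each, and a pseudocount of 0.1 kept 2, 2 and 1. The search for NF-κB motifs in promoters was not run, since no sequence was used here. Depth limits *CR44651* most, with 6 to 22 reads per sample.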
